A study of Mus musculus with 20 samples.

Results

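Livers of mice without either step of the carnitine shuttle were compared with livers of floxed control mice after a 24 h fast. TKO is the liver-specific triple knockout of CPT1A, CPT1B and CPT2, and Control carries the same 3 floxed alleles without the deletion. Each group has 4 libraries, so the comparison uses 8 of the 20 libraries of the series, chosen by their titles and genotype labels and not by any measured value. A liver-specific CPT2 knockout (Cpt2KO) and a liver-specific CPT1A and CPT1B double knockout (Cpt1DKO), 4 libraries each and fasted in the same way, are used only to show where TKO differs from them. The design text calls the controls littermates. The labels used here name neither the Cre driver nor the age of the mice nor whether each library is a separate animal, so that p-values measure only the spread between these libraries.

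The carnitine shuttle carries long-chain fatty acids into mitochondria. CPT1 on the outer membrane passes the acyl group from coenzyme A to carnitine, a translocase moves the acylcarnitine inwards, and CPT2 on the inner membrane passes the acyl group back to coenzyme A for beta oxidation. In a fasted liver this route feeds ketone body synthesis and supplies the energy for glucose synthesis, and fatty acids that are not oxidized can be stored as triglyceride in lipid droplets or bind the nuclear receptor PPARalpha.

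Total counts of the 8 libraries ran from 15984190 to 20273303, and 15669 of the 56748 genes in the table had enough counts to be tested. The first principal component held 53.9% of the variance of the 8 libraries and had all Control libraries on one side and all TKO libraries on the other. Reads from mitochondrial genes made up 4.73 to 5.98% of the counts in Control and 5.63 to 8.02% in TKO. All 8 libraries had counts from Y-linked genes and at most 19 counts of Xist. Levels below are in CPM, each library's counts brought to one common total after TMM scaling, log2 fold changes are TKO over Control, and a gene is called when its adjusted p is under 0.05 in edgeR's quasi-likelihood test. In bulk liver, fewer cells of a type and less RNA per cell cannot be told apart.

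Cpt1a (chr19:3372334-3435733, GRCm39), the main CPT1 of hepatocytes, was at 940.1, 1045, 1039 and 1127 CPM in the 4 Control libraries and 118, 139.7, 145 and 145 CPM in the 4 TKO libraries (log2 fold change -2.92, SE 0.19, adjusted p = 1.9e-09). Cpt2 (chr4:107761178-107780807) was at 211, 267, 254 and 266 CPM in the 4 Control libraries and 115, 92.5, 94 and 112 CPM in the 4 TKO libraries (log2 fold change -1.27, SE 0.18, adjusted p = 3.8e-05). Every TKO library lay below every Control library for both genes, and both kept reads in TKO. Cpt1b (chr15:89300608-89310066), the muscle form of CPT1, went the other way, at 0.442, 0.675, 0.763 and 0.293 CPM in the 4 Control libraries and 3.03, 2.76, 3.03 and 2.38 CPM in the 4 TKO libraries (log2 fold change 2.37, SE 0.38, adjusted p = 1.1e-04). Gene totals do not show which exons the reads came from, so Cpt1b does not check the label. Per length, in the authors' FPKM, Cpt1a was at 133 ± 10.1 in Control and 17.7 ± 1.61 in TKO, Cpt1b at 0.158 ± 0.0626 and 0.821 ± 0.0914, and the brain form Cpt1c at 0.0863 ± 0.0234 and 0.0775 ± 0.0107 (SD, n = 4). The Cpt1a level that remained in TKO was thus above that of Cpt1b in either group. Of 11 shuttle and carnitine genes tested 3 rose and 3 fell, with the targeted Cpt1a, Cpt1b and Cpt2 counted among them. That is 54.5% called, against 27.4% of all genes tested. Beside the targeted genes, the carnitine importer Slc22a5 rose (log2 fold change 1.26, SE 0.15), as did the carnitine acetyltransferase Crat (log2 fold change 0.98, SE 0.19), and Bbox1, the last enzyme of carnitine synthesis, fell (log2 fold change -0.58, SE 0.14). The translocase Slc25a20 had a log2 fold change of 0.30 and was not called (adjusted p = 0.0845).

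Of the 15669 genes tested, 4287 were called (27.4%), 2030 higher in TKO (13%) and 2257 lower (14.4%). Among the called genes, 727 were higher and 959 lower by at least 2-fold, and 106 were higher and 63 lower by at least 8-fold. Libraries of the 2 groups did not overlap for 33.3% of all genes tested, and 3840 genes were both called and without overlap. The scaling shifts this split: with library size alone the median of all genes moved from -0.01 to 0.24, and 4088 genes were called higher and 1312 lower. Changes below are relative to a median of -0.01. Of 1501 long noncoding RNAs tested, 157 were called higher and 163 lower. The plot of all genes tested shows calls at every level of abundance, from genes near 1 CPM to albumin.

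**Figure D1:**
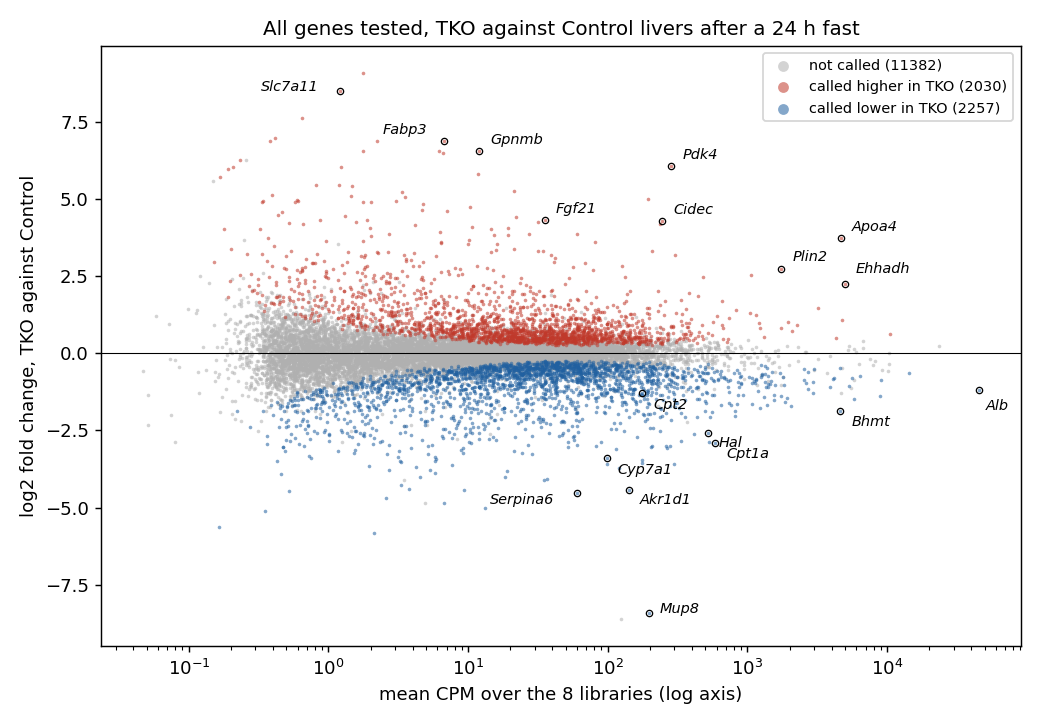
Each point is a gene, with its mean CPM over the 8 libraries on a log axis and its log2 fold change, TKO against Control, on the vertical axis. Red points are the 2030 genes called higher, blue points the 2257 called lower, and grey points those not called. Slc7a11 had no count in Control, so its plotted value is a fitted value and no bound, and Mup8 rests on 1 Control library.

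PPARalpha is a nuclear receptor that binds fatty acids and switches on genes of lipid uptake, oxidation and storage during fasting. Of 40 of its known targets tested, 27 rose in TKO and 0 fell (median 0.98 against -0.01 over all genes). Its own gene, Ppara, was at 189, 198, 269 and 277 CPM in the 4 Control libraries and 209, 395, 337 and 348 CPM in the 4 TKO libraries and was not called (log2 fold change 0.47, SE 0.24, adjusted p = 0.156). The 2 groups overlapped for Ppara. Pparg, the receptor known for its part in fat storage, rose from 8.57 ± 0.628 to 20.7 ± 3.18 CPM (log2 fold change 1.27, SE 0.18, adjusted p = 3.1e-05; SD over 4 libraries), and the shared partner receptor Rxra fell (log2 fold change -0.67, SE 0.17). Of the coactivators, Ppargc1a had a log2 fold change of -0.22 and was not called.

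Promoters of 2 risen PPARalpha targets and 2 risen ATF4 targets are shown because they hold the motif of the factor their group is named for; the stretches end before the transcription start. The motif for PPARalpha was AGGTCA followed after any 1 base by a second AGGTCA, with up to 2 mismatches. That for ATF4 was TGATGCAAT with none. Both were among the motifs searched on both strands in the 250 bases before the start, from RefSeq promoters on GRCm38.p6. Capitals mark the match, which in all 4 lies on the strand opposite to the one printed.
Cd36: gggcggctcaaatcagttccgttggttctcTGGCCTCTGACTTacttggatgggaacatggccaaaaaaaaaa
Plin2: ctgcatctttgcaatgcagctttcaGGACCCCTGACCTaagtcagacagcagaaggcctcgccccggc
Fgf21: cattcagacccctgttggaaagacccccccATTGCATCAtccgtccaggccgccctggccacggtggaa
Nupr1: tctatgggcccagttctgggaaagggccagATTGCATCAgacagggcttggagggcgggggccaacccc
They lie at chr5:17835917-17835989, chr4:86670242-86670309, chr7:45615592-45615660 and chr7:126625543-126625611, all on the minus strand. The PPARalpha motif was found before 2 of the 23 risen targets with a promoter in the table, and before 5 of all 32 targets with one, against 3.72% of 27025 genes. The ATF4 motif was found before 2 of 17 risen genes of the integrated stress response and 4 of all 33 with a promoter, against 0.192% of genes. A match is a description of the letters and not of a bound site.

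The lipid droplet is the organelle in which hepatocytes store triglyceride, and perilipins and CIDE proteins coat it. Of 18 coat and regulator genes tested, 11 rose and 1 fell (median 0.80), with 0 lower without Control replicate 3 or 4 or TKO replicate 3. Cidec, which fuses droplets, was at 20, 25, 22.4 and 29.8 CPM in the 4 Control libraries and 428, 541, 468 and 435 CPM in the 4 TKO libraries (log2 fold change 4.27, SE 0.23, adjusted p = 9.6e-11). Plin2, the main droplet coat protein of liver, was at 389, 482, 389 and 558 CPM in Control and 3617, 3318, 2621 and 2610.5 CPM in TKO (log2 fold change 2.74, SE 0.23, adjusted p = 9.1e-08). For neither gene did the groups overlap, a condition of the rule for naming the largest and most abundant changes. Plin4 rose by 3.31 log2 units (SE 0.51), Plin5, which ties droplets to mitochondria, by 1.45 log2 units (SE 0.23), and Plin3 by 1.51 log2 units (SE 0.17). Cidea, known from brown fat, rose from 0.113 ± 0.137 to 2.53 ± 1.85 CPM and by 4.43 log2 units (SE 0.92), with a log2 fold change of 5.26 without Control replicate 3. The lipase inhibitor G0s2 had a log2 fold change of -0.71 and was not called.

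Enzymes at the entry and exit of the triglyceride store rose in part. Of 17 triglyceride synthesis genes tested, 9 rose and 2 fell, and of 14 lipases, 4 rose and 4 fell. Without any 1 of Control replicates 1, 2 and 4 or TKO replicates 1, 3 and 4, 2 lipases were called lower. The share called was 64.7% of the synthesis list and 57.1% of the lipase list. Of all genes tested 27.4% were called, 13% higher and 14.4% lower. Pnpla2, the adipose triglyceride lipase, was at 198, 196, 192 and 211 CPM in Control and 391, 607, 464 and 457 CPM in TKO (log2 fold change 1.27, SE 0.16, adjusted p = 6.8e-06), and Lipa, the lysosomal acid lipase, rose by 1.04 log2 units (SE 0.12). Gpat3, which starts triglyceride synthesis, rose by 1.47 log2 units (SE 0.23), Mogat2 by 2.35 log2 units (SE 0.43) and Lpin2 by 1.29 log2 units (SE 0.21). Dgat2, which finishes it, had a log2 fold change of -0.18 and was not called. Among genes of fatty acid uptake and binding, the transporter Cd36 rose from 40.7 ± 8.62 to 225 ± 11.8 CPM (log2 fold change 2.47, SE 0.33, adjusted p = 3.2e-05), and the carrier Fabp4, known from fat cells, by 2.43 log2 units (SE 0.37). Fabp3, the carrier of heart muscle, was at 0.0553, 0.0675, 0.0693 and 0.234 CPM in the 4 Control libraries and 10.9, 1.35, 18.2 and 23 CPM in the 4 TKO libraries (log2 fold change 6.87, SE 0.82, adjusted p = 1.4e-05), with a log2 fold change of 7.61 without Control replicate 4. Fabp1, the liver carrier, had a log2 fold change of -0.08 and was not called. In the authors' FPKM, the level of Fabp1 was 3000.3 ± 334.9 in Control and 2861 ± 653 in TKO, against 1.63 ± 0.48 and 8.86 ± 3.09 for Fabp4 and 0.127 ± 0.102 and 16 ± 11.3 for Fabp3 (SD, n = 4).

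Fatty acid oxidation runs in mitochondria and in peroxisomes, and some of its genes rose and others fell in both. In peroxisomes, which shorten very long chains, Ehhadh was at 1809.6, 2381, 1038 and 1734 CPM in Control and 7403, 9785, 7543 and 8134 CPM in TKO (log2 fold change 2.24, SE 0.22, adjusted p = 6.5e-07), and Acaa1b, a thiolase of the route, rose by 1.46 log2 units (SE 0.34). Of 22 peroxisomal oxidation genes 4 rose and 3 fell (31.8% called, against 27.4% of all genes tested). The fallers were Pecr, which reduces enoyl-CoA (log2 fold change -2.26, SE 0.20), Acox2, the oxidase of bile acid intermediates (log2 fold change -1.05, SE 0.15), and Phyh, which starts phytanic acid oxidation (log2 fold change -0.78, SE 0.22). Pex11a, which drives peroxisome division, rose by 1.86 log2 units (SE 0.17), and 6 of 19 biogenesis genes rose and 5 fell. In mitochondria 5 of 18 beta oxidation genes rose and 3 fell (median 0.19), with 3 higher without Control replicate 1 or 2 or TKO replicate 2 or 3, and 1 lower without Control replicate 3 or 4 or TKO replicate 1, 3 or 4. With library size alone as the scaling, 10 rose and 0 fell. In the main fit 44.4% of the mitochondrial beta oxidation list was called, against 27.4% of all genes tested. The medium-chain dehydrogenase Acadm had a log2 fold change of -0.08 and was not called, and the long-chain dehydrogenase Acadl rose by 0.56 log2 units (SE 0.13).

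Acyl-CoA thioesterases, which free fatty acids from coenzyme A, rose in 7 of 15 cases and fell in 1, a call that was lost without any 1 of 6 of the 8 libraries (all but Control replicate 3 and TKO replicate 2). Mitochondrial Acot2 was at 9.73, 8.71, 14.5 and 16.2 CPM in Control and 142, 135, 154 and 169.7 CPM in TKO (log2 fold change 3.61, SE 0.38, adjusted p = 4.1e-06), and cytosolic Acot1 rose by 2.49 log2 units (SE 0.21). These 2 genes are close relatives, so reads may be split between them. Per length, in the authors' FPKM, Acot1 was at 36.6 ± 4.29 in Control and 206.2 ± 18.2 in TKO, and Acot2 at 5.5 ± 1.64 and 67.6 ± 6.38 (SD, n = 4). Of 8 ketone body genes 1 rose, the ketone and lactate transporter Slc16a1 (log2 fold change 0.84, SE 0.16), and 1 fell (0 without Control replicate 3 or TKO replicate 2, and 2 without Control replicate 2). The share of the ketone body list that was called, 25%, is near the 27.4% of all genes tested.

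Pdk4 blocks pyruvate dehydrogenase and so keeps pyruvate from being burned. It was at 7.24, 6.08, 13.4 and 7.2 CPM in the 4 Control libraries and 268, 963, 584 and 433 CPM in the 4 TKO libraries (log2 fold change 6.05, SE 0.55, adjusted p = 1.2e-06). TKO replicate 2 was highest and replicate 1 lowest, and both lay far above all Control libraries. Pdk1 fell (log2 fold change -0.86, SE 0.16), and Pdk2 had a log2 fold change of -0.38 and was not called. In the authors' FPKM, Pdk2 was the highest of the 4 kinases in Control (41.8 ± 0.714, with Pdk4 at 2.37 ± 0.933), and Pdk4 in TKO (158 ± 84.4, with Pdk2 at 32.3 ± 3.65). Of 42 nuclear-encoded respiratory chain genes 0 rose and 4 fell (median -0.17), and 2 fell without Control replicate 2, 3 or 4 or TKO replicate 1, 3 or 4. With library size alone the median was 0.07, with 1 higher and 0 lower. Of 13 transcripts of the mitochondrial genome 0 were called (1 without TKO replicate 2 or 4). In the citric acid cycle, citrate synthase Cs rose by 0.91 log2 units (SE 0.25), and 14 of 18 genes were not called (22.2% called, against 27.4% of all genes tested).

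**Figure D2:**
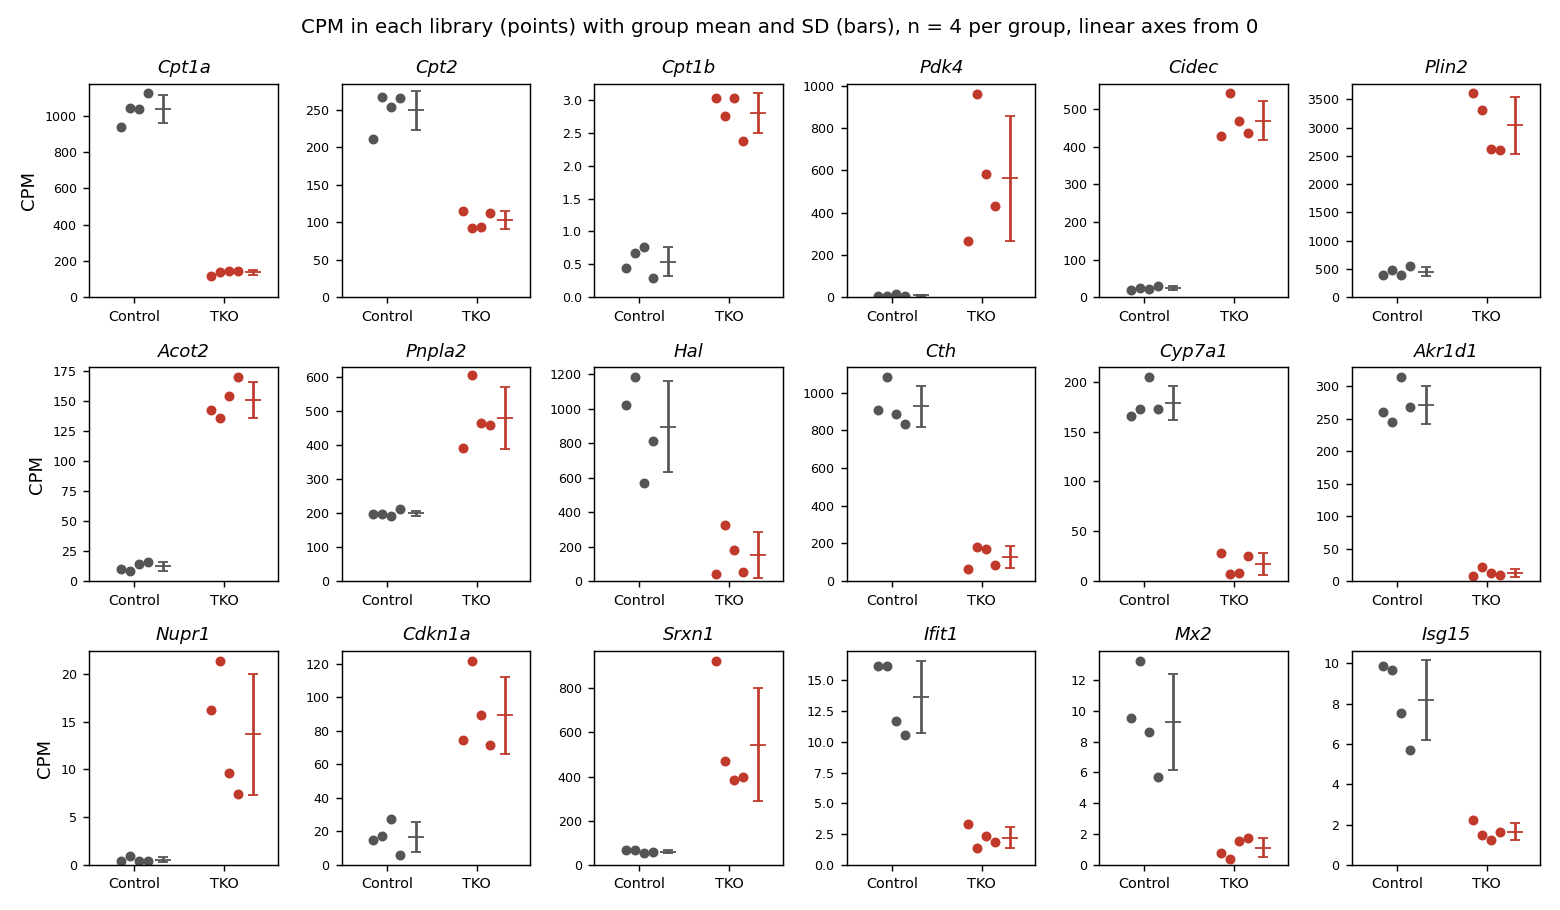
CPM of 18 genes in each of the 4 Control and 4 TKO libraries, on linear axes from 0, with group means and SD. For every gene drawn the 4 TKO libraries lie on one side of the 4 Control libraries. The largest and most abundant changes were taken only where the groups do not overlap, so for such genes this was set by the choice.

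Several genes of glucose output fell. Of 18 gluconeogenesis genes 8 fell and 2 rose (median -0.46), with 1 higher without Control replicate 1, 2 or 4 or TKO replicate 1 or 4. G6pc, the last enzyme of glucose release, was at 582, 727, 427 and 557 CPM in Control and 145, 214, 135 and 56 CPM in TKO (log2 fold change -2.06, SE 0.46, adjusted p = 0.00282), and Fbp1, an earlier step, fell by 2.03 on the log2 scale (SE 0.26). The glucose transporter Slc2a2 fell by 1.73 log2 units (SE 0.23). Pck1, the entry enzyme, fell by 0.80 log2 units (SE 0.28), with an adjusted p of 0.0405 that rose to between 0.0658 and 0.104 without any 1 of Control replicates 2, 3 and 4 or TKO replicates 1, 3 and 4. Of 23 genes of glycogen and glucose use 9 fell and 3 rose. The subunits that target protein phosphatase to glycogen went both ways: Ppp1r3c was at 50.6, 57.1, 120.4 and 34.3 CPM in Control and 3.82, 3.24, 3.5 and 4.58 CPM in TKO (log2 fold change -4.11, SE 0.67, adjusted p = 3.0e-04) and Ppp1r3b fell by 3.09 log2 units (SE 0.33), whereas Ppp1r3g was at 1.27, 1.89, 1.11 and 4.33 CPM in Control and 13.1, 75.1, 33.1 and 25.4 CPM in TKO (log2 fold change 4.07, SE 0.92, adjusted p = 0.00368). The log2 fold change of Ppp1r3g was 4.70 without Control replicate 4 and 3.46 without TKO replicate 2.

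Amino acid breakdown feeds both glucose synthesis and the urea cycle. Of 43 of its genes 34 fell and 0 rose (median -0.84). Etnppl, which breaks down phosphoethanolamine, was at 495, 647, 382 and 328 CPM in Control and 27.1, 63.4, 83.6 and 58.3 CPM in TKO (log2 fold change -2.99, SE 0.69, adjusted p = 0.00428), and Afmid and Haao of tryptophan breakdown fell, with log2 fold changes of -2.68 (SE 0.65) and -2.43 (SE 0.32). Hal, the first enzyme of histidine breakdown, was at 1019, 1179.8, 569 and 812 CPM in Control and 41.5, 326, 182 and 54.6 CPM in TKO (log2 fold change -2.57, SE 0.58, adjusted p = 0.00358), with a log2 fold change of -3.27 without TKO replicate 2. Tdo2 and Tat, which open tryptophan and tyrosine breakdown, had log2 fold changes of -0.19 and -0.56 and were not called. Of 16 genes of the urea cycle and nitrogen disposal 12 fell (median -0.73). Car5a, the mitochondrial carbonic anhydrase that supplies bicarbonate to the cycle, was at 63.1, 72.8, 63.4 and 78.6 CPM in Control and 3.27, 5.93, 3.92 and 3.57 CPM in TKO (log2 fold change -4.07, SE 0.64, adjusted p = 2.3e-04). Otc fell by 1.79 log2 units (SE 0.33), and Cps1, the first and rate-limiting enzyme, had a log2 fold change of -0.35 and was not called. In the methionine and transsulfuration list 14 of 22 fell and 1 rose, with Cth, which makes cysteine, at 909.6, 1083, 885 and 832 CPM in Control and 64.4, 181, 168 and 86.8 CPM in TKO (log2 fold change -2.89, SE 0.41, adjusted p = 5.9e-05) and a log2 fold change of -1.77 (SE 0.20) for Cbs, the step before it.

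Hepatocytes differ along the lobule, with urea and glucose synthesis near the portal vein and glutamine synthesis and drug oxidation near the central vein. Of 17 periportal genes 14 fell and 1 rose (median -1.58), and of 22 pericentral genes 11 fell and 1 rose (median -1.03), the latter lost without Control replicate 2 or 4 or TKO replicate 2. Cyp2f2, a periportal marker, was at 748, 858, 743 and 784 CPM in Control and 169, 349.8, 229 and 110.1 CPM in TKO (log2 fold change -1.87, SE 0.41, adjusted p = 0.00229), and Glul, the pericentral glutamine synthetase, at 1344, 1310.2, 1230 and 1195 CPM in Control and 277, 399.7, 441 and 489 CPM in TKO (log2 fold change -1.66, SE 0.28, adjusted p = 2.0e-04). The periportal riser was Hsd17b13, a lipid droplet enzyme (log2 fold change 1.15, SE 0.17). Cyp2e1 had a log2 fold change of -0.35 and Axin2, a target of Wnt signalling, of 0.06, and neither was called.

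Most cholesterol and bile acid genes fell. In cholesterol synthesis and uptake 17 of 25 genes fell and 0 rose (median -0.97). Msmo1, a sterol oxidase of the synthesis route, was at 56.4, 48.8, 149 and 121 CPM in Control and 28.5, 20.2, 19.5 and 29 CPM in TKO (log2 fold change -1.95, SE 0.42, adjusted p = 0.00217). Of 22 bile acid genes 14 fell and 0 rose (median -1.11). Cyp7a1, which starts bile acid synthesis, was at 166, 172, 204 and 172 CPM in the 4 Control libraries and 28.3, 6.81, 8.26 and 24.6 CPM in the 4 TKO libraries (log2 fold change -3.39, SE 0.45, adjusted p = 4.4e-05). Nr0b2, a nuclear receptor that represses Cyp7a1, was also lower, at 42, 37.2, 39.5 and 20.7 CPM in Control and 0.182, 3.03, 4.43 and 0.961 CPM in TKO (log2 fold change -4.00, SE 0.80, adjusted p = 0.00145), with a log2 fold change of -4.69 without TKO replicate 3. Akr1d1, a later enzyme, was at 260.1, 246, 314 and 268 CPM in Control and 8.18, 21.6, 12 and 8.92 CPM in TKO. The export pump Abcb11 fell by 3.04 log2 units (SE 0.38) and the uptake carrier Slc10a1 fell by 1.34 log2 units (SE 0.29). Cyp8b1, which sets the mix of bile acids, had a log2 fold change of 0.21 and was not called.

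Lipogenesis genes fell in 9 of 17 cases and rose in 3 (median -0.98). Thrsp was at 47.2, 35.4, 24.8 and 45.5 CPM in Control and 4.06, 7.62, 2.61 and 2.88 CPM in TKO (log2 fold change -3.18, SE 0.31, adjusted p = 6.2e-07), and the fatty acid synthase Fasn and its regulator Srebf1 fell, with log2 fold changes of -1.28 (SE 0.27) and -1.47 (SE 0.19). The risers were Acacb (log2 fold change 1.92, SE 0.19), whose product malonyl-CoA inhibits CPT1, Insig2 (log2 fold change 1.69, SE 0.37), which holds back the processing of sterol regulators, and the malic enzyme Me1 (log2 fold change 0.74, SE 0.20). Elovl7, an elongase of long fatty acids, was at 0.221, 0.135, 0.832 and 0.468 CPM in Control and 32.7, 18.7, 18.7 and 21.9 CPM in TKO (log2 fold change 5.80, SE 0.89, adjusted p = 1.7e-04).

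Most plasma proteins made by hepatocytes were lower. Of 26 carrier proteins 21 fell and 0 rose (median -0.92), and of 40 coagulation and complement genes 32 fell and 0 rose (median -0.92). Albumin, Alb, was at 55144, 69494, 60367 and 66326 CPM in the 4 Control libraries and 24019, 40639, 26440.5 and 19599 CPM in the 4 TKO libraries (log2 fold change -1.18, SE 0.24, adjusted p = 9.4e-04), and transferrin, Trf, at 11969.7, 13515, 13869 and 11940.4 CPM in Control and 4336, 6089.9, 5219 and 3968 CPM in TKO (log2 fold change -1.39, SE 0.18, adjusted p = 1.2e-05). Serpina6, the carrier of corticosteroids, was at 85.5, 94, 174 and 106 CPM in Control and 3.76, 5.39, 5.18 and 5.49 CPM in TKO (log2 fold change -4.53, SE 0.70, adjusted p = 2.1e-04). Serpind1, an inhibitor of thrombin, was at 450.3, 519, 528 and 489 CPM in Control and 42.2, 109, 57.8 and 38.3 CPM in TKO (log2 fold change -3.01, SE 0.43, adjusted p = 7.8e-05), and Klkb1, a member of the contact route of clotting, fell by 2.44 log2 units (SE 0.44). Fgg and Fga, 2 of the fibrinogen chains, fell, with log2 fold changes of -1.78 (SE 0.31) and -1.59 (SE 0.29). Selenop, the selenium carrier, had a log2 fold change of 0.13 and was not called. Mup8, a major urinary protein, was at 3.26, 1558, 2.57 and 3.98 CPM in Control and 1.21, 2.02, 1.4 and 0.137 CPM in TKO, so that its log2 fold change of -8.41 rests on Control replicate 2 and was -1.46 (adjusted p = 0.268) without Control replicate 2.

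Lipoproteins and acute phase proteins did not all follow. Apoa4, an apolipoprotein of triglyceride-rich particles, was at 872, 922, 398 and 434 CPM in the 4 Control libraries and 12119, 6156, 6627 and 9640.1 CPM in the 4 TKO libraries (log2 fold change 3.72, SE 0.36, adjusted p = 5.7e-07), and Mttp, which loads lipid onto apolipoprotein B, rose by 0.56 log2 units (SE 0.12). Of 27 lipoprotein genes 2 rose and 15 fell, with a log2 fold change of -2.59 (SE 0.44) for the lipase regulator Angptl8. Apob, the backbone of these particles, had a log2 fold change of -0.39 and was not called. Of 22 acute phase genes 11 fell and 2 rose, with 1 higher without any 1 of 6 of the 8 libraries (all but TKO replicates 3 and 4). Orm2 was at 6.36, 5.67, 5.34 and 5.56 CPM in Control and 109, 53.2, 18.5 and 47.3 CPM in TKO (log2 fold change 3.31, SE 0.54, adjusted p = 2.8e-04) and Saa4 at 185, 201, 301 and 201 CPM in Control and 7.45, 24.3, 15.3 and 20.3 CPM in TKO (log2 fold change -3.72, SE 0.50, adjusted p = 4.7e-05). Orm1, a close relative of Orm2, had a log2 fold change of -0.29 and was not called. These genes belong to families of close copies.

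Many genes of drug metabolism fell. Of 38 cytochromes P450 of the drug-metabolizing families 23 fell and 0 rose (median -1.18). Cyp2c54 was at 289, 289, 435 and 453 CPM in Control and 42.5, 60.9, 40.4 and 37.3 CPM in TKO (log2 fold change -3.02, SE 0.48, adjusted p = 2.2e-04), and Cyp2c50 and Cyp2c37 fell, with log2 fold changes of -2.61 (SE 0.47) and -2.51 (SE 0.36), although reads may be shared between these close copies. Of 21 transporters 9 fell, and of 22 conjugating enzymes 9 fell and 1 rose (0 without Control replicate 1, 3 or 4 or TKO replicate 1). Aox3, an aldehyde oxidase, was at 486, 646, 549 and 535 CPM in Control and 32.5, 62.7, 36.2 and 52.8 CPM in TKO (log2 fold change -3.59, SE 0.61, adjusted p = 3.9e-04). Among the factors that keep hepatocyte identity, Hnf4a was at 938, 977, 1001 and 861 CPM in the 4 Control libraries and 727, 1260.4, 944 and 802 CPM in the 4 TKO libraries and was not called (log2 fold change -0.02, SE 0.15, adjusted p = 0.948). Of 35 hepatocyte transcription factors and other nuclear receptors 10 fell and 0 rose (median -0.34). Of this list 28.6% was called, against 27.4% of all genes called and 14.4% called lower. Onecut1 fell by 2.33 log2 units (SE 0.60) and Foxa2 fell by 0.96 log2 units (SE 0.27), and Cebpa had a log2 fold change of -0.93 and was not called.

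**Figure D3:**
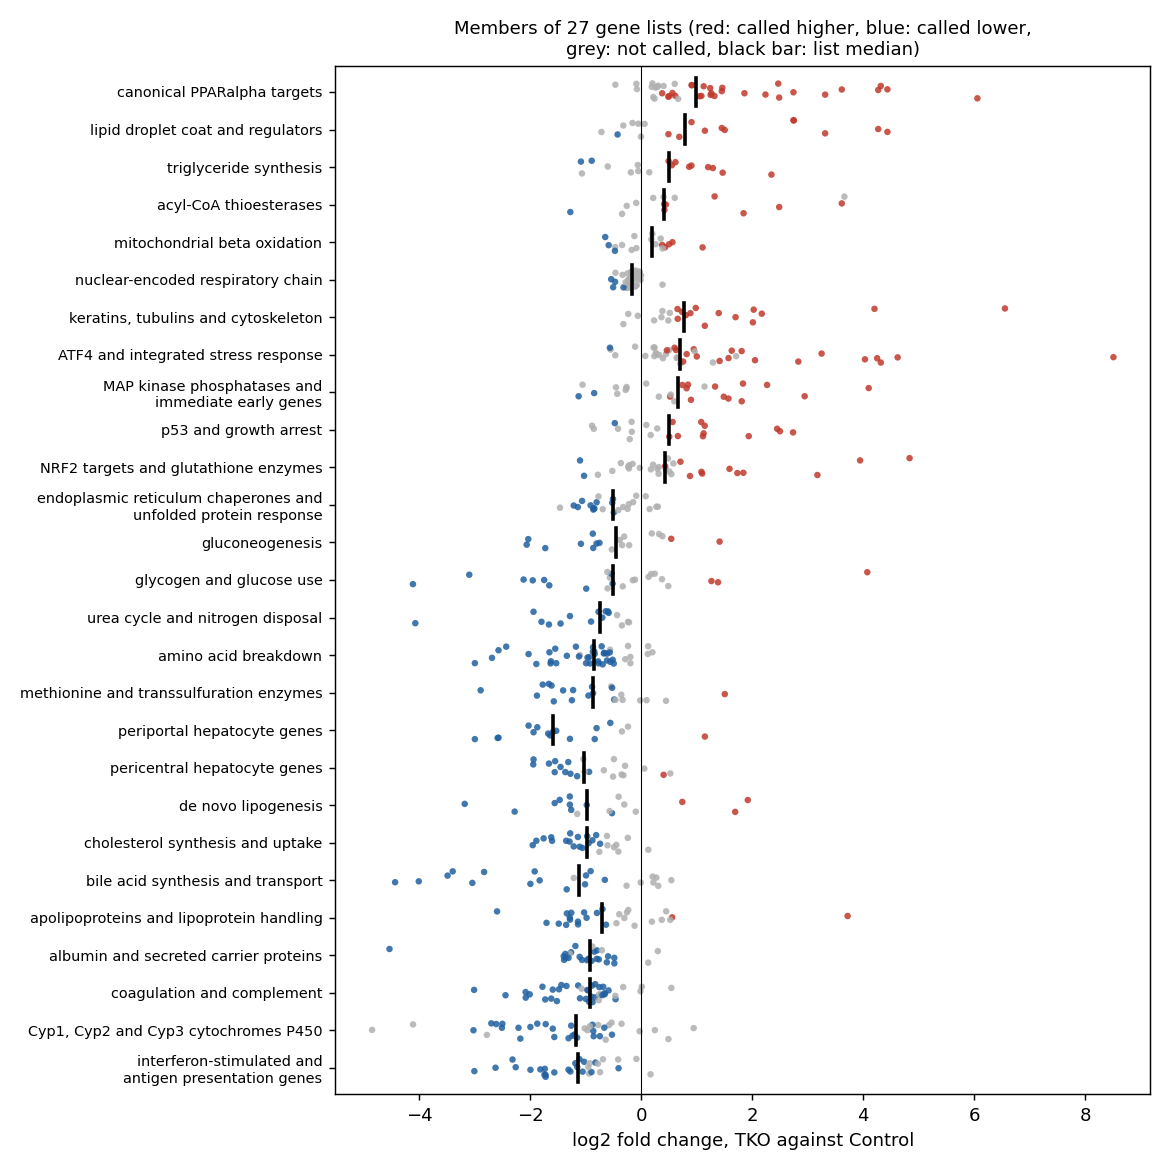
Each point is a tested member of one of 27 gene lists, at its log2 fold change of TKO against Control, red where called higher, blue where called lower and grey where not called, and black bars are list medians. PPARalpha targets (27 of 40 higher), lipid droplet genes (11 of 18) and cytoskeleton genes (14 of 22) lie to the right, and amino acid breakdown (34 of 43 lower), coagulation and complement (32 of 40) and interferon-stimulated genes (21 of 30) to the left. Some genes belong to several lists, among them Cidec and Plin4. The lists and their members were chosen with earlier results of these data known.

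The integrated stress response slows translation and, through ATF4, raises genes of amino acid supply. Of 39 of its genes 19 rose and 1 fell (median 0.70). Nupr1 was at 0.442, 0.945, 0.416 and 0.41 CPM in the 4 Control libraries and 16.2, 21.3, 9.61 and 7.46 CPM in the 4 TKO libraries (log2 fold change 4.62, SE 0.80, adjusted p = 5.1e-04), and the hormones Fgf21 and Gdf15 rose from 3.45 ± 1.92 to 67.9 ± 44.2 CPM and from 3.21 ± 1.89 to 60.3 ± 19.1 CPM (SD, n = 4). Slc7a11, the cystine importer, had 0 counts in all 4 Control libraries and 162 counts over the 4 TKO libraries, which makes it at least 51.8-fold higher against a floor of 3 counts over the Control group. Atf3 rose by 4.03 log2 units (SE 0.69) and the serine synthesis enzyme Psat1 by 3.25 log2 units (SE 0.68). Atf4 itself had a log2 fold change of 0.39, its partner Ddit3 of 0.28 and its target Asns of 0.24, and none of these 3 was called. In the unfolded protein response of the endoplasmic reticulum 11 of 24 genes fell and 0 rose, with log2 fold changes of -1.14 (SE 0.21) for the disulfide isomerase Pdia6 and -0.86 (SE 0.21) for the lectin chaperone Calr. Hspa5, the main chaperone there, had a log2 fold change of -0.32 and was not called.

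Other stress responses were mixed, with more genes called higher than lower in each list. Of 31 NRF2 targets, which deal with oxidants, 11 rose and 2 fell. Srxn1, which restores peroxiredoxins, was at 65.2, 65.7, 54.2 and 56.1 CPM in the 4 Control libraries and 924, 469.8, 385 and 398 CPM in the 4 TKO libraries (log2 fold change 3.17, SE 0.56, adjusted p = 5.2e-04), whereas the log2 fold change was 0.48 for Nqo1, a classical target, and -0.22 for Gclm, and neither was called. Of 21 genes of p53 and growth arrest 11 rose and 1 fell (0 to 2 without 1 library). Among the risers were the cell cycle inhibitor Cdkn1a at 14.9, 17.3, 27.6 and 5.79 CPM in Control and 74.4, 122, 89.5 and 71.5 CPM in TKO (log2 fold change 2.45, SE 0.58, adjusted p = 0.00507) and the death receptor gene Tnfrsf10b, higher by 2.73 log2 units (SE 0.50). Mdm2, a p53 target that destroys p53, had a log2 fold change of 0.29 and was not called. Of 26 MAP kinase phosphatases and immediate early genes 13 rose and 2 fell. The phosphatase Dusp8 rose by 4.10 log2 units (SE 0.60), and the transcription factors Klf6 and Myc by 2.94 log2 units (SE 0.47) and 1.81 log2 units (SE 0.30).

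Of 22 cytoskeletal genes 14 rose and 0 fell (median 0.77), against 13% of all genes called higher. This list, like the others, was chosen with earlier results of these data known. Tubb2a, a tubulin, was at 27.6, 35.5, 17.8 and 16.9 CPM in the 4 Control libraries and 710, 339, 327 and 423 CPM in the 4 TKO libraries (log2 fold change 4.20, SE 0.45, adjusted p = 4.6e-06), and its close copy Tubb2b rose from 0.121 ± 0.0882 to 12.2 ± 6.29 CPM. Actg1 rose by 2.03 log2 units (SE 0.14) and Anxa5 by 2.01 log2 units (SE 0.25). Of 34 proteasome genes 6 rose, led by Psmd8 (log2 fold change 1.36, SE 0.19), and the 3 that fell were Psmb8, Psmb9 and Psmb10, the interferon-inducible subunits of the immunoproteasome (log2 fold changes -1.11, -0.73 and -1.37). The share of the list that was called, 26.5%, is near the 27.4% of all genes tested. Ribosomal protein genes were called higher in 13 of 44 cases (median 0.33), which ranged from 3 to 20 when 1 library was left out: 3 without Control replicate 2 or TKO replicate 3, 4 without Control replicate 1 or TKO replicate 1, 6 without Control replicate 4 and 20 without Control replicate 3. With library size alone 41 were higher. In the main fit 29.5% of the ribosomal list was called, against 27.4% of all genes called and 13% called higher. The autophagy receptor Sqstm1 rose from 454 ± 30.7 to 1203 ± 289 CPM (log2 fold change 1.41, SE 0.29, adjusted p = 0.00123), and the ferritin chains Fth1 and Ftl1, which store iron, rose by 0.73 log2 units (SE 0.16) and 1.01 log2 units (SE 0.17).

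Interferon-stimulated genes defend cells against viruses and present antigens. Of 30 tested 21 fell and 0 rose (median -1.13). Mx2 was at 9.57, 13.2, 8.6 and 5.74 CPM in the 4 Control libraries and 0.788, 0.404, 1.54 and 1.74 CPM in the 4 TKO libraries (log2 fold change -3.0, SE 0.40, adjusted p = 1.6e-05), Ifit1 at 16.2, 16.1, 11.7 and 10.5 CPM in Control and 3.33, 1.35, 2.33 and 1.83 CPM in TKO (log2 fold change -2.62, SE 0.32, adjusted p = 5.8e-06) and Isg15 at 9.84, 9.65, 7.56 and 5.68 CPM in Control and 2.24, 1.48, 1.21 and 1.65 CPM in TKO (log2 fold change -2.31, SE 0.27, adjusted p = 3.4e-06). For these 3 genes all TKO libraries lay below all Control libraries. Irf7, a transcription factor upstream of these genes, fell by 1.81 log2 units (SE 0.28). B2m, the light chain of class I molecules, fell by 0.89 log2 units (SE 0.13), and Cd74, the class II chaperone of antigen-presenting cells, had a log2 fold change of -0.74 and was not called.

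Promoters of 4 of the fallen interferon-stimulated genes are shown with their match to the interferon response element, GAAA followed after any 2 bases by GAAACT, searched on both strands with up to 1 mismatch in the same 250 bases. Capitals mark 1 match without mismatch in each, on the strand opposite to the one printed. The stretches of Ifit1 and Gbp3 hold another such match, left wholly or partly in lower case.
Ifit1: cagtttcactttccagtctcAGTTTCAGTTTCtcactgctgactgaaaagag
Ifit3: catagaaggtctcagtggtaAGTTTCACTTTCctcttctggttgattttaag
Gbp7: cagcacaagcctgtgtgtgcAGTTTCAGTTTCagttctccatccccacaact
Gbp3: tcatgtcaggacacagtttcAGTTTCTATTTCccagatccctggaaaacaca
They lie at chr19:34640782-34640833, chr19:34583351-34583402, chr3:142530261-142530312 and chr3:142559983-142560034, all on the plus strand. The motif was found before 12 of the 17 fallen genes with a promoter in the table and 14 of all 24 with one, against 3.69% of 27025 genes. Ifit3, Gbp3 and Gbp7, chosen for these promoters after their values were seen, fell, with log2 fold changes of -1.74 (SE 0.26), -1.56 (SE 0.26) and -1.18 (SE 0.26). Also searched on both strands, without mismatch, were 2 motifs for lists above, N being any base. The antioxidant response element TGACNNNGC was found before 2 of 8 risen and 1 of 1 fallen NRF2 targets with a promoter. Over all 26 it was found before 6, against 11.5% of genes. The sterol response element TCACNCCAC was found before 0 of 11 fallen cholesterol genes and 1 of all 17, against 1.22% of genes.

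Signals that the liver sends and receives changed on both sides. Of 24 hepatokine and receptor genes 5 rose and 10 fell. While Fgf21 rose, its coreceptor Klb fell (log2 fold change -1.42, SE 0.21). The leptin receptor Lepr was at 11.4, 5.4, 8.25 and 5.97 CPM in the 4 Control libraries and 18.3, 108, 68.8 and 89.6 CPM in the 4 TKO libraries (log2 fold change 3.19, SE 0.67, adjusted p = 0.0021). The growth hormone receptor Ghr was at 407, 416, 459 and 423 CPM in Control and 186, 152, 161 and 191 CPM in TKO (log2 fold change -1.31, SE 0.22, adjusted p = 1.7e-04), and Igfals, which stabilizes IGF1 in blood, fell by 1.67 log2 units (SE 0.39), while Igf1 had a log2 fold change of -0.35 and was not called. Enho, the gene of adropin, and Leap2, which blocks the ghrelin receptor, fell, with log2 fold changes of -2.78 (SE 0.36) and -2.37 (SE 0.31).

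Cell type markers were read to see which cells the RNA came from. Of 10 hepatocyte markers 5 fell, and the sum over the list, in CPM of the unscaled total count, was 79313 to 90081 CPM in Control and 45293 to 67530.2 CPM in TKO, with none at 0. Resident macrophage (Kupffer cell) markers were called lower in 1 of 13 cases (0 without Control replicate 1, 2 or 3 or TKO replicate 1 or 2) and summed to 264 to 557 CPM in Control and 186 to 429 CPM in TKO. Endothelial markers were called in 0 of 14 cases (3 without Control replicate 1) and summed to 382 to 927 CPM in Control and 473 to 878 CPM in TKO, and lymphocyte markers in 0 of 10 with sums of 8.84 to 23.5 CPM in Control and 8.95 to 21.4 CPM in TKO. Of 6 monocyte and neutrophil markers 0 were called (30.3 to 73.2 CPM in Control and 20.3 to 43.7 CPM in TKO), with 2 listed markers at 0 in every Control library and 2 in every TKO library. Bile duct markers were called lower in 2 of 9 cases (1 without Control replicate 2 or TKO replicate 1 or 2) and summed to 39.3 to 51.2 CPM in Control and 25.8 to 40.3 CPM in TKO, and erythroid transcripts in 0 of 5 with sums of 101 to 226 CPM in Control and 182 to 393 CPM in TKO. Stellate cell and matrix genes summed to 336 to 431 CPM in Control and 517 to 611 CPM in TKO, with 1 of 19 called higher, the basement membrane gene Col4a1 (log2 fold change 1.24, SE 0.20), and 1 lower, which was lost without TKO replicate 1. Of 18 genes known from lipid-laden macrophages 5 rose and 3 fell (44.4% called, against 27.4% of all genes tested). Gpnmb, a membrane glycoprotein of such cells, was at 0.387, 0.54, 0.0693 and 0 CPM in the 4 Control libraries and 27.6, 21.5, 20.7 and 24.9 CPM in the 4 TKO libraries (log2 fold change 6.54, SE 0.48, adjusted p = 5.0e-08), with a log2 fold change of 7.17 without Control replicate 2. Cd63 and Cd68 rose by 2.69 log2 units (SE 0.36) and 2.01 log2 units (SE 0.26), and among the fallers were the secreted protein Spp1 (log2 fold change -1.02, SE 0.31) and the proton pump subunit Atp6v0d2 (log2 fold change -3.24, SE 0.80). The call for Spp1 was lost without Control replicate 2 or TKO replicate 1 or 2 (adjusted p up to 0.0656) and with library size alone. Trem2 and Itgax had log2 fold changes of -0.21 and -0.88 and were not called. The median of this list was -0.15, and 0.09 with library size alone. Whether a change in the mix of cells has a part in these levels was not tested.

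TKO and Cpt2KO share the loss of CPT2 and differ by label in CPT1. Between them 8 of 15669 genes were called (0.0511%), 5 higher in TKO (0.0319%) and 3 lower (0.0191%), with 1690 genes at an unadjusted p under 0.05. Cpt1a was at 137 ± 12.7 CPM in TKO and 1384 ± 191 CPM in Cpt2KO (log2 difference -3.34, SE 0.19, adjusted p = 9.7e-10; SD over 4 libraries). Ide, the insulin-degrading enzyme, was at 129 ± 18.4 and 259 ± 32.4 CPM (log2 difference -1.01, SE 0.18, adjusted p = 0.0282), and Hivep2, a zinc finger protein, at 16.5 ± 2.92 and 8.04 ± 1.66 CPM (log2 difference 1.04, SE 0.17, adjusted p = 0.0245). The other 5 were picked out after their values were seen. The noncoding RNA 4931408D14Rik was lower in TKO, at 81.8 ± 12.5 CPM against 232 ± 25.2 CPM in Cpt2KO. Higher in TKO were 4732416N19Rik at 1.82 ± 0.743 against 0.456 ± 0.128 CPM, Gm44507 at 1.44 ± 0.215 against 0.224 ± 0.107 CPM, Nalf2 at 1.26 ± 0.922 against 0.0555 ± 0.0642 CPM and the mitochondrial transfer RNA mt-Tg at 1.78 ± 1.08 against 0.0133 ± 0.0266 CPM. In Cpt2KO, replicate 3 had 18063 counts of Xist and 0 or 1 of each of 4 Y-linked genes, unlike the other 3 libraries, and without it 9 genes were called. Without 1 of the other libraries 3 to 10 genes were called: 3 without Cpt2KO replicate 2 or TKO replicate 2 or 3, 4 without Cpt2KO replicate 1 or 4, and 5 without TKO replicate 4. Cpt1a, 4931408D14Rik and mt-Tg passed in all 8 of these fits, Ide, Hivep2 and Nalf2 in 2 each (adjusted p up to 0.205, 0.115 and 0.143), 4732416N19Rik in 1 (up to 0.294) and Gm44507 in 0 (up to 0.172). DESeq2 called 54 genes. None of the 68 gene lists other than that of the shuttle had a called member. A p that misses the threshold does not show that the 2 groups are alike.

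Against Cpt1DKO, which keeps CPT2 by label, 729 genes were called in TKO (4.65%), 407 higher (2.6%) and 322 lower (2.06%), and 3127 had an unadjusted p under 0.05. Leaving out 1 library gave 278 to 898 genes: 278 without TKO replicate 1, 465 and 438 without TKO replicates 3 and 4, 379, 329 and 288 without Cpt1DKO replicates 1, 3 and 4, and 898 without Cpt1DKO replicate 2. In Cpt1DKO replicate 2 the Cpt2 level was 147 CPM, against 284, 298 and 302 CPM in the other 3 and 92.5 to 115 CPM in TKO. Cpt2 differed between the groups (log2 difference -1.32, SE 0.18, adjusted p = 3.5e-04) and Cpt1a did not pass the threshold (log2 difference -0.18, SE 0.18, adjusted p = 0.641). Gpnmb was at 23.7 ± 3.18 CPM in TKO and 1.68 ± 0.695 CPM in Cpt1DKO (log2 difference 3.79, SE 0.37, adjusted p = 2.0e-05), Nupr1 at 13.7 ± 6.32 and 0.657 ± 0.193 CPM (log2 difference 4.32, SE 0.79, adjusted p = 0.00622), and Orm2 at 57.1 ± 38 and 5.05 ± 2.51 CPM (log2 difference 3.49, SE 0.55, adjusted p = 0.00206). In Control these 3 genes had means of 0.249 ± 0.257, 0.553 ± 0.262 and 5.73 ± 0.44 CPM. Cyp7a1 was at 17 ± 11 CPM in TKO and 149 ± 35.4 CPM in Cpt1DKO (log2 difference -3.13, SE 0.45, adjusted p = 0.00104). Cyp2c38, a cytochrome P450, was at 15.4 ± 5.4 and 111 ± 29 CPM (log2 difference -2.85, SE 0.49, adjusted p = 0.0039).

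For Pdk4, Plin2, Cidec and Fgf21 the mean level in Cpt1DKO lay between those of Control and TKO, as it did for Gpnmb. The means of Nupr1 and Cyp7a1 also lay between, but their Cpt1DKO libraries overlapped those of Control. Cpt1DKO against Control was not tested. Pdk4 was at 68.5 ± 42.4 CPM in Cpt1DKO (TKO against Cpt1DKO, log2 difference 3.04, SE 0.47, adjusted p = 0.00186), and Plin2 at 1425 ± 309 CPM (log2 difference 1.09, SE 0.22, adjusted p = 0.00754). Cidec, at 302 ± 64.8 CPM, was not called between the 2 knockouts (log2 difference 0.63, SE 0.20, adjusted p = 0.0704), and neither was Fgf21, at 29.6 ± 12 CPM (log2 difference 1.19, SE 0.48, adjusted p = 0.17). Of the PPARalpha targets 7 of 40 were higher in TKO than in Cpt1DKO and 0 lower, against 2.6% of all genes, and of the integrated stress response 8 of 39. Without 1 library these counts were 4 to 6 and 3 to 9, the first at 4 without Cpt1DKO replicate 4 or TKO replicate 3 or 4, and the second at 3 or 4 without any 1 of Cpt1DKO replicates 1, 3 and 4 or TKO replicates 1 and 4. Among coagulation and complement genes 10 of 40 were lower in TKO, against 2.06% of all genes, and among carrier proteins 8 of 26. Without 1 library these were 3 to 17 and 2 to 12: the carrier proteins fell to 2 without Cpt1DKO replicate 1, 3 or 4 or TKO replicate 1, 3 or 4, and rose to 12 without TKO replicate 2, and the coagulation genes were at 15 and 17 without TKO replicate 2 and Cpt1DKO replicate 2 and at 3 to 6 without any other. Ahsg, the carrier fetuin-A, was at 3427 ± 367 CPM in TKO and 7505 ± 1149 CPM in Cpt1DKO (log2 difference -1.13, SE 0.16, adjusted p = 3.0e-04). Of the 407 genes higher than in Cpt1DKO, 365 were also called higher than in Control, and of the 322 lower, 287 were also called lower than in Control. Both comparisons use the same TKO libraries.

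**Figure D4:**
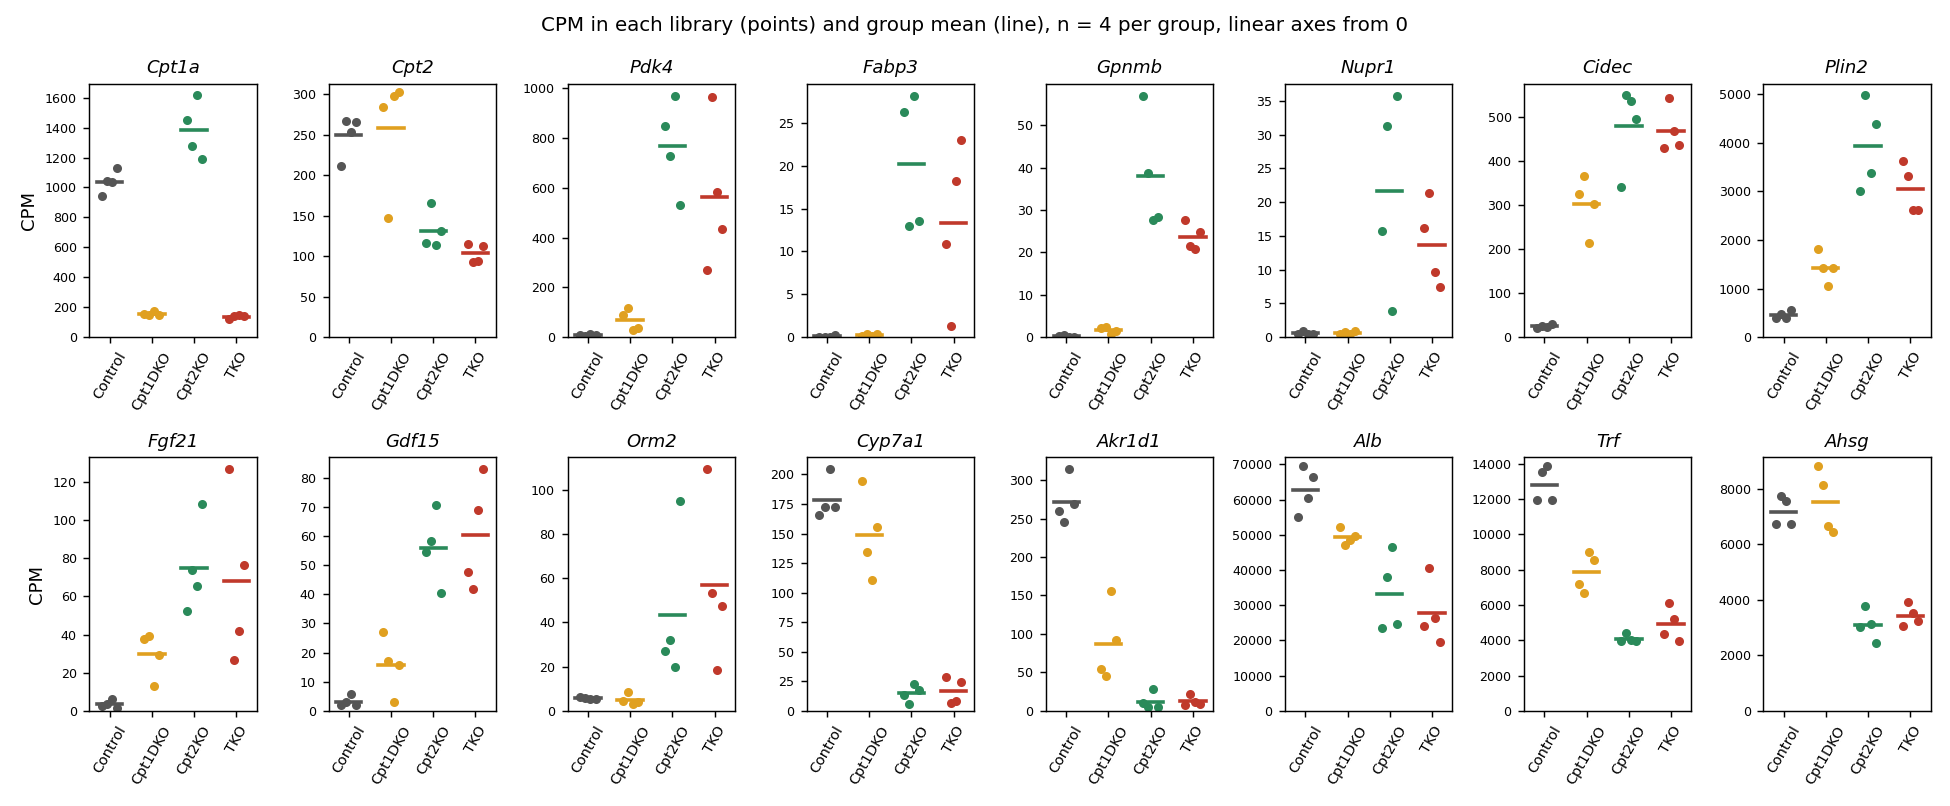
CPM of 16 genes in each library of Control, Cpt1DKO, Cpt2KO and TKO, 4 per group, on linear axes from 0, with a line at each group mean. Cpt1a is low in Cpt1DKO and TKO and Cpt2 in Cpt2KO and TKO, with 1 Cpt1DKO library at 147 CPM of Cpt2, and for Nupr1, Orm2 and Fabp3 the Cpt1DKO means (0.657, 5.05 and 0.233 CPM) sit near those of Control.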

How the data were processed

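RNA of mouse liver was sequenced in 20 libraries, and reads were aligned with HISAT2 to GRCm39 (mm39), per the submitters' processing notes. The counting step, its use of strand and its annotation are, in the sources used here, not given, so close copies (Mup, Cyp2c, Cyp4a, Saa, Orm, Acot1 and Acot2, Tubb2a and Tubb2b) and overlapping genes may share reads. The authors deposited raw counts per gene, FPKM per gene, and a table of their own comparison with its log2 fold changes and adjusted p-values. The authors' FPKM were used only to set levels of different genes side by side, and the authors' log2 fold changes and p-values only to check the sign of the contrast. With no statement of strand, antisense partners cannot be told apart.

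Counts were tested with edgeR 4.0.16 (R 4.3.3), quasi-likelihood with robust fitting, TMM scaling and filterByExpr with a minimum count of 10, over all 20 libraries with group as the only term. Adjusted p-values are Benjamini-Hochberg over the 15669 genes tested in each contrast, two-sided. Standard errors were taken from the F statistic (the absolute log2 fold change over its square root). Replicates of a group differed by more than counting noise (chi-square per degree of freedom 20.6 to 74.8), and precision rests on 4 libraries a group of 15984190 to 20273303 counts. Summed marker levels use the total count without scaling.

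Members and lists were chosen with earlier results of these data known. The 68 lists are described by counts and medians only. Lists share members, so their counts are not separate results. Among the shared members, Cidea, Cidec, Plin2 and Plin4 are in the PPARalpha and lipid droplet lists, and Acot1, Acot2 and Acot4 in the PPARalpha and thioesterase lists. Cd36 and Fabp1 are in the PPARalpha and fatty acid uptake lists, and Pdk4 in the PPARalpha and pyruvate dehydrogenase lists. Other genes are shared as well. Fgf21 is in the PPARalpha and integrated stress response lists. Genes named are the largest and most abundant changes, the targeted genes, and for each list its key members, the largest called and the most abundant uncalled members. The largest and most abundant changes were taken only from called protein-coding genes without overlap between the groups. Non-overlap of those genes is thus set by the choice and is no finding. Outside that rule, Hsd17b13, Ifit3, Gbp3, Gbp7 and the noncoding or low genes called against Cpt2KO were picked out after their values were seen. Alternatives were DESeq2 1.42.0, other scalings and filters, the 8 libraries alone, the replicate number as a block, and leaving out each library. The 4 libraries without PPARalpha and CPT2 entered the fit for the spread and no comparison here. Promoter sequences are from RefSeq on GRCm38.p6, 27025 genes, and coordinates of genes are from the deposited table on GRCm39.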

Additional observations from a re-analysis of the deposited data

Results flagged for a closer look

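For 190 named genes, each group of 4 libraries was searched for a library standing far from the other 3, by Dixon's 95% critical value. It was met in 17 of 380 groups, and chance gives about 1 in 20. TKO replicate 2 was the highest TKO library for Cyp2e1 (11199 CPM against 8252 to 8573 CPM in the other 3), Cyp4f14 (43.9 CPM against 17.9 to 21.3 CPM) and Enho (4.99 CPM against 3.07 to 3.33 CPM). TKO replicate 1 was highest for Srxn1 (924 CPM against 385 to 469.8 CPM) and Atf4 (149 CPM against 105 to 107 CPM) and lowest for Hlf (31.6 CPM against 46.1 to 48.9 CPM). TKO replicate 3 was highest for Mogat2 (4.85 CPM against 3.03 to 3.27 CPM) and lowest for Ppcs (58.3 CPM against 60.3 to 60.7 CPM) and Gm44507 (1.12 CPM against 1.51 to 1.58 CPM). TKO replicate 4 was highest for Pdk1 (50.9 CPM against 40.1 to 41.4 CPM) and Cxcl1 (1.05 CPM against 0.404 to 0.513 CPM).

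In Control, replicate 3 was highest for Ppp1r3b (350.2 CPM against 149 to 174 CPM), Saa4 (301 CPM against 185 to 201 CPM) and Pdk4 (13.4 CPM against 6.08 to 7.24 CPM). Control replicate 2 was highest for Mup8 (1558 CPM against 2.57 to 3.98 CPM) and Nupr1 (0.945 CPM against 0.41 to 0.442 CPM), and replicate 4 for Fabp3 (0.234 CPM against 0.0553 to 0.0693 CPM). Apart from Mup8, none of these genes that was called lost its call without the library named.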

How the results depend on the processing

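The 4287 calls between TKO and Control became 4673 with DESeq2, 4274 with RLE size factors, 4286 with a minimum of 1 CPM in 4 libraries, 3663 with no filter, 5033 with the 8 libraries alone and 3394 to 3785 when 1 library was left out. Every gene called both here and under one of these settings kept its direction. Scaling by library size alone gave 4088 higher and 1312 lower, against 2030 and 2257. The cause of these shifts was not tested beyond the scaling itself, which moved the median of all genes to 0.24. TKO against Cpt2KO gave 8 genes, 54 with DESeq2, 5 with only the libraries compared and 3 to 10 without 1 library. TKO against Cpt1DKO gave 729, 1266 with DESeq2 and 278 to 898 without 1 library, and the cause was not tested.

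Same-numbered Control and TKO libraries did not deviate together (correlations of -0.153, 0.055, -0.047 and -0.082). No pairing by number was visible, but so few correlations cannot show that there is none. With the replicate number as a block 4419 genes were called between TKO and Control, 5 between TKO and Cpt2KO and 895 between TKO and Cpt1DKO. Of the 154 called genes named, 4 (Mup8, Pck1, Spp1 and Gm44507) lost the call without at least 1 library. Counts of 15984190 to 20273303 per library limit genes under about 1 CPM, such as those at 0 in Control.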

Other observations

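Carriers of the inner mitochondrial membrane moved apart. Of 23 tested 4 rose and 7 fell (47.8% called, against 27.4% of all genes tested). Ucp3, an uncoupling protein known from muscle, was at 0, 0.0675, 0.208 and 0.234 CPM in Control and 4.24, 4.04, 4.25 and 3.11 CPM in TKO (log2 fold change 4.90, SE 0.56, adjusted p = 3.5e-06), and Ucp2 rose by 1.05 log2 units (SE 0.23). The orphan carriers Slc25a30 and Slc25a47 rose by 1.40 log2 units (SE 0.18) and 0.97 log2 units (SE 0.23), and Slc25a45 and Slc25a48 fell, with log2 fold changes of -1.82 (SE 0.21) and -1.79 (SE 0.37). All 4 TKO libraries lay above all Control libraries for Ucp3. In omega oxidation, which starts fatty acid breakdown at the far end of the chain, 4 of 15 genes rose (2 without Control replicate 1 or TKO replicate 2) and 4 fell. Aldh3a2, the fatty aldehyde dehydrogenase, rose by 1.25 log2 units (SE 0.24), and Cyp4f14, which inactivates leukotrienes, fell by 1.91 log2 units (SE 0.27).

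Genes of vitamins and cofactors were counted by list. Of 21 NAD genes 7 fell (4 without Control replicate 3) and 0 rose. Acmsd, which draws tryptophan away from NAD synthesis, was at 35.5, 33.7, 21.1 and 13.9 CPM in Control and 3.21, 7.55, 3.5 and 2.06 CPM in TKO (log2 fold change -2.70, SE 0.49, adjusted p = 6.1e-04), and Nnmt, which methylates nicotinamide, fell by 1.57 log2 units (SE 0.40). Of 21 retinoid genes 7 fell (4 without Control replicate 2) and 2 rose (1 without any 1 of the Control replicates or TKO replicate 1). Dhrs3, which returns retinal to retinol, fell by 1.70 log2 units (SE 0.29), and Retsat, which saturates retinol, rose from 1574 ± 231 to 2968 ± 472 CPM (log2 fold change 0.92, SE 0.19, adjusted p = 0.0013). Of 13 coenzyme A genes 2 rose, Ppcs (log2 fold change 1.09, SE 0.14) and Slc5a6 (log2 fold change 0.66, SE 0.17), and 1 fell, Vnn3 (log2 fold change -0.84, SE 0.24). The share called was 33.3% of the NAD list, 42.9% of the retinoid list and 23.1% of the coenzyme A list. Of all genes tested 27.4% were called, 13% higher and 14.4% lower. The medians of the retinoid and coenzyme A lists, -0.02 and -0.01, turned positive with library size alone, at 0.23 and 0.22.

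Among chemokine and cytokine genes 6 of 20 fell and 0 rose (30% called, against 27.4% of all genes called and 14.4% called lower). Cxcl1, which draws neutrophils, was at 2.43, 2.7, 4.65 and 1.64 CPM in Control and 0.424, 0.404, 0.513 and 1.05 CPM in TKO (log2 fold change -2.20, SE 0.47, adjusted p = 0.00135), and Il18 fell by 2.00 log2 units (SE 0.26). Of 23 cell cycle genes 3 rose, with the replication helicase subunit Mcm2 at a log2 fold change of 1.62 (SE 0.28), and 5 fell (3 without Control replicate 4 or TKO replicate 1, 3 or 4), with Ccnb2, a mitotic cyclin, at -2.21 (SE 0.56). Of the cell cycle list 34.8% was called, against 27.4% of all genes tested, of which 13% were called higher and 14.4% lower. In the clock 5 of 18 genes fell, and 3 without Control replicate 2, 3 or 4 or TKO replicate 1, 3 or 4, with log2 fold changes of -1.42 (SE 0.30) for Nfil3 and -1.18 (SE 0.25) for Hlf. Of the clock list 27.8% was called, against 27.4% of all genes called and 14.4% called lower. Of 33 lysosome genes 8 rose (5 without Control replicate 1 and 4 without TKO replicate 1) and 8 fell (5 without Control replicate 2), with the proton pump subunit Atp6v0d2 at 2.38, 1.82, 3.47 and 3.39 CPM in Control and 0.182, 0.539, 0.0933 and 0.366 CPM in TKO (log2 fold change -3.24, SE 0.80, adjusted p = 0.00523).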
